A study of Mus musculus with 43 samples.

Results

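Resting natural killer (NK) cells were compared with resting CD8 T cells in 6 of the 43 arrays of the series, 3 for each cell type. The 6 arrays were chosen by title, as the spleen baseline arrays of both types, and every gene on them was tested. The series measured RNA of sorted immune cells on whole-transcript Affymetrix microarrays (Mouse Gene 1.0 ST), in untreated mice and after an injection of interferon alpha. The mice of both groups were untreated C57BL/6 males aged 6 weeks. The sort gate of the CD8 T cells was CD8+, with no second marker named. That of the NK cells was NK1.1+ TCRb- for arrays 1 and 2 and NK1.1+ alone for array 3. Although the titles and the preparation name spleen, the source of CD8 T cell arrays 1 and 2 is given as blood and that of array 3 as spleen. The preparation wording also differs, with staining named for arrays 1 and 2 of each type and digestion for array 3. Each of these differences sets replicates 1 and 2 apart from replicate 3. Only the wording does so in both groups, the source in CD8 T cells alone and the gate in NK cells alone. In replicates 1 and 2 the labelled source of the CD8 T cells therefore cannot be told apart from cell type. Whether arrays of a group stem from different mice is not stated. Each p-value reflects the spread among arrays within groups, pooled over all 18 groups of the fit, and not a known spread among mice. The number of arrays, 3 for each cell type, limits the precision.

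NK cells are innate lymphocytes that kill infected or transformed cells without a rearranged antigen receptor. They read germline-encoded activating and inhibitory receptors, many of them lectin-like proteins that recognise MHC class I or related ligands, and signal through small adaptors with activation motifs. CD8 T cells use a clonal T cell receptor that signals through the CD3 chains, with CD8 as coreceptor for MHC class I. Naive CD8 T cells recirculate through lymph nodes and acquire granzymes and perforin after activation, whereas NK cells carry RNA of such genes at rest. RNA levels do not give the amount of protein in granules.

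Promoter sequences are shown for 3 genes high in NK cells and 3 high in CD8 T cells, because the levels of these receptor, granzyme, coreceptor and T cell genes are given in full with the results and T-box and RUNX factors are known regulators in both. They are the 250 bases before a RefSeq start site on GRCm38.p6, written 5′ to 3′ along the gene's strand. Ncr1 lies on the plus strand at chr7:4337465-4337714, Klrb1c on the minus strand at chr6:128788642-128788891, Gzma on the minus strand at chr13:113100982-113101231, Cd8a on the plus strand at chr6:71373177-71373426, Cd3e on the minus strand at chr9:45009612-45009861 and Dapl1 on the plus strand at chr2:59484403-59484652. Capitals mark matches to AGGTGT, the core of the T-box motif, or to TGTGGT, the core of the RUNX motif, on either strand (ACACCT and ACCACA when read on the other strand).
Ncr1: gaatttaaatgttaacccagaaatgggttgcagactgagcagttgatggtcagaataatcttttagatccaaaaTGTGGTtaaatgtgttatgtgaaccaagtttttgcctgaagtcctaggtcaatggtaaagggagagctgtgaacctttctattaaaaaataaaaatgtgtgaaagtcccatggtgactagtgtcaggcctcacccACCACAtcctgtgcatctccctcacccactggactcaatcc
Klrb1c: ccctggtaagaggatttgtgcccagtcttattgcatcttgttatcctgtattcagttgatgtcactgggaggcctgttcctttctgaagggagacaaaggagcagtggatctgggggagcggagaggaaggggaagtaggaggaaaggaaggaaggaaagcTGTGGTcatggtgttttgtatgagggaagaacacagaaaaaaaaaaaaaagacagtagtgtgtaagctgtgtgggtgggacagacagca
Gzma: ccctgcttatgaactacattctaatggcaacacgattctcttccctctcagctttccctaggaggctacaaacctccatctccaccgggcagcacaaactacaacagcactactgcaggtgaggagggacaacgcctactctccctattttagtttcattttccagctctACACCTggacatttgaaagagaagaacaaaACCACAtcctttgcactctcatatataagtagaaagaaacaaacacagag
Cd8a: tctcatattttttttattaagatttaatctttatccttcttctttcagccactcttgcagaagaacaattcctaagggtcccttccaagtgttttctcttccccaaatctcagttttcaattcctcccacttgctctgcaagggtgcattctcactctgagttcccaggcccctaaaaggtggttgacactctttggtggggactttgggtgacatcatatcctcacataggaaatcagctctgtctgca
Cd3e: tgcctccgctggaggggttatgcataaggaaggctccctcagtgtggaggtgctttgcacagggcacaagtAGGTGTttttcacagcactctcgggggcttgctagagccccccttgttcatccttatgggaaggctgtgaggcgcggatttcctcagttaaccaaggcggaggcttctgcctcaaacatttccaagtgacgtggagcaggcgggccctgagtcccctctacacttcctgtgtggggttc
Dapl1: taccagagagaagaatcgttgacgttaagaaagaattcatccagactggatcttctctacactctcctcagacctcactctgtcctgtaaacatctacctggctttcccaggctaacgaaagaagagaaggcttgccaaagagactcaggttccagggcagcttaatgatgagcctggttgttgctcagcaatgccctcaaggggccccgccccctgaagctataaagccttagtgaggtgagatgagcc
The Ncr1 window held 2 RUNX matches, the Klrb1c window 1, and the Gzma window 1 RUNX and 1 T-box match. The Cd3e window held 1 T-box match, and neither motif was present in the Cd8a and Dapl1 windows. No matches overlapped. CTTTGA, the core of the TCF and LEF motif, was in none of the 6. Of 19019 start sites of 15483 measured genes, 11.8% held the RUNX core, 10.9% the T-box core and 12.5% the TCF and LEF core in this window. Among 562 start sites of 420 genes called higher in NK cells the shares were 14.2%, 7.83% and 10.9%. Among 428 start sites of 327 genes called higher in CD8 T cells they were 10%, 13.1% and 11.0%. These are shares of letters in a window, given without a test.

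The labels were first checked against the markers of both types. Ncr1, which encodes the activating receptor NKp46, had log2 intensities of 13.29, 13.38 and 13.60 in the NK arrays and 4.87, 4.77 and 5.19 in the CD8 T cell arrays. Cd8a, which encodes the CD8 alpha chain, had 6.04, 6.37 and 6.09 in the NK arrays and 11.84, 11.89 and 11.76 in the CD8 T cell arrays. Neither gene overlapped between the groups, and Klrb1c, which encodes NK1.1, Klrk1, Eomes, Klrd1, Cd8b1, Cd3e, Cd3d and Cd3g were likewise separated in the labelled direction. NK1.1 and CD8 are the proteins the gates select on, so the levels of Klrb1c, Cd8a and Cd8b1 check the sort and are not findings. That holds also where they are given again below or counted in a list. The gate of NK arrays 1 and 2 also leaves out TCRb+ cells, so T cell receptor genes there are not independent of the sort. Array medians were at most 119 on the linear scale and differed by less than 1.2 times. Each array correlated with the remaining arrays of its group at 0.982 to 0.994, lowest for NK array 2, whose SD around its group mean was 0.263 on the log2 scale against 0.133 to 0.203 in the other 5 arrays.

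Lists of markers of other cell types were read for RNA from cells outside the gates. Of 12 dendritic cell markers only Itgax was called, which NK cells are known to express. In CD8 T cell array 2 the MHC class II gene H2-Aa was at 9.39, against 6.76 and 6.02 in arrays 1 and 3, and H2-Ab1 was at 9.28 against 6.80 and 6.39. Cd74, the invariant chain, was at 10.09 against 7.89 and 7.26 there, and Clec9a, a receptor of cross-presenting dendritic cells, at 6.26 against 4.48 and 5.15. Array 2 was the highest CD8 T cell array for these 4 genes. The summed level of the 12 markers was 10.25, 11.91 and 10.14 on the log2 scale in CD8 T cell arrays 1, 2 and 3, and between 11.94 and 12.36 in the NK arrays, where Itgax is part of it. In the sorted dendritic cells of the series Cd8a averaged 10.17 and Cd8b1 7.19. A larger number of another cell and more RNA per such cell cannot be told apart in these arrays.

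Of 11 B cell markers, Cd79b was called higher in CD8 T cells, at 9.36, 9.46 and 9.19 against 7.29, 7.28 and 7.72, but not in replicate 3 alone (-1.47, adjusted p = 0.306). Defining B cell genes were low in both groups, with Cd79a between 5.60 and 6.37 and Ms4a1 between 5.30 and 6.30. None of 12 macrophage and monocyte, 11 neutrophil, 4 red cell and 5 platelet markers was called, where 2.76% and 2.1% of all genes were called higher in NK and in CD8 T cells. Summed levels in the NK and CD8 T cell arrays were 10.02 to 10.13 and 10.32 to 10.45 for B cells, 10.36 to 10.61 and 10.15 to 10.48 for macrophages and monocytes, and 8.93 to 9.21 and 8.96 to 9.14 for neutrophils. Red cell sums ran from 8.13 to 8.43 and from 8.14 to 8.28, and platelet sums from 8.68 to 8.99 and from 8.67 to 8.86. Of 8 CD4 T cell markers, Zbtb7b was higher in NK cells and Cxcr5 in CD8 T cells, while Cd4 itself lay between 6.14 and 6.44 in all 6 arrays. Cxcr5 was not called in replicate 3 alone (-1.92, adjusted p = 0.155). Of 5 markers of gamma-delta T and NKT cells only Zbtb16, the NKT and innate lymphocyte factor PLZF, was called, at 9.07, 8.33 and 8.90 in NK cells against 7.10, 7.03 and 7.11.

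**Figure D1:**
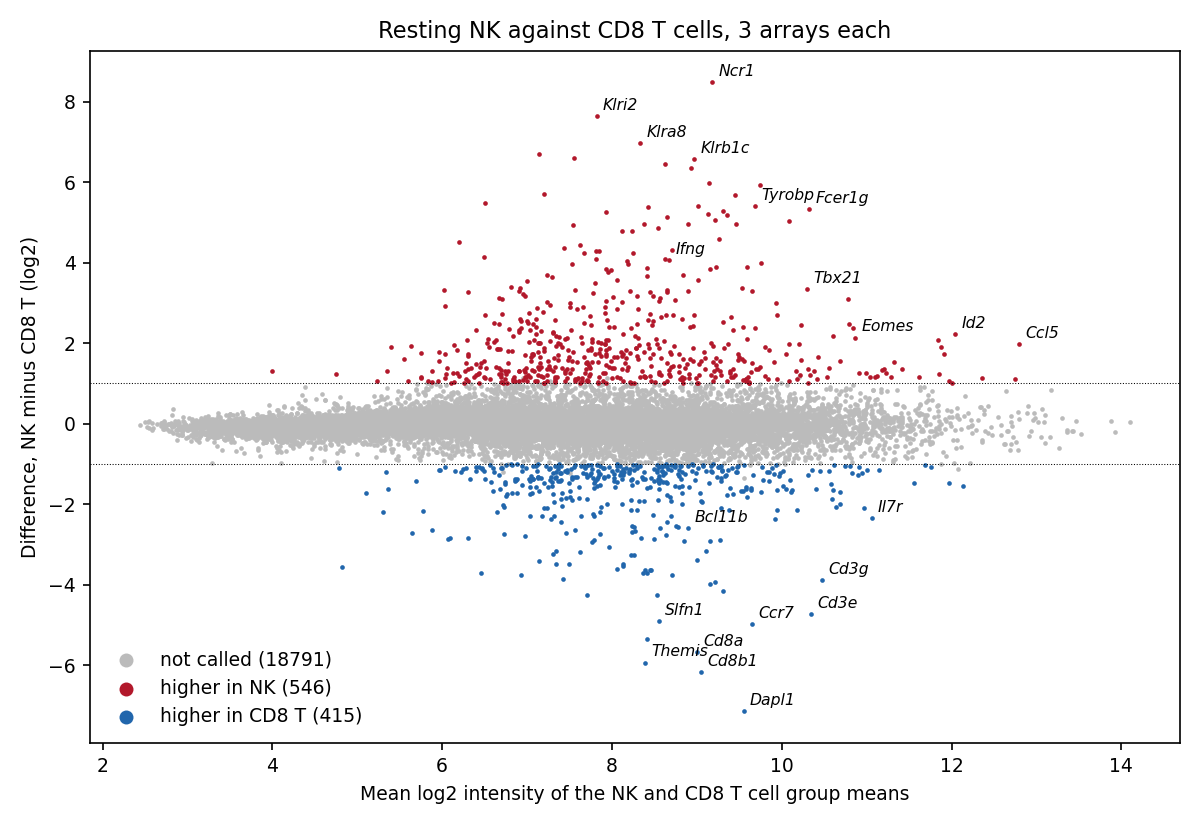
Difference between resting NK and CD8 T cells (log2, vertical axis; NK minus CD8 T) against the mean log2 intensity of both group means (horizontal axis), 1 point for each of 19752 genes. Red points are the 546 genes called higher in NK cells and blue points the 415 called higher in CD8 T cells; dotted lines mark 1 on the log2 scale, and Ncr1 and Dapl1 lie at the ends, at 8.48 and -7.14.

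A gene was called where its Benjamini-Hochberg adjusted p from limma was below 0.05 and the group means differed by at least 1 on the log2 scale, a 2-fold difference. Of 19752 genes, 546 (2.76%) were called higher in NK cells and 415 (2.1%) higher in CD8 T cells. The median difference of all genes was 0.01. The NK side held more of the large differences. At 2 or more on the log2 scale 190 genes were higher in NK cells and 96 in CD8 T cells, and at 4 or more 45 and 11. Replicates 1 and 2 alone gave 502 and 463 called genes. Replicate 3 alone, with 1 array a group assumed to vary like the other groups, gave 540 and 234, so that the CD8 T cell count was smaller by more than 1.5 times. In both sets and over all arrays, 425 genes were called higher in NK cells and 210 in CD8 T cells. The difference itself was also compared between replicates 1 and 2 and replicate 3. With 1 array a group in replicate 3, that comparison cannot decide whether the replicate sets agree. Blood or spleen source, the preparation wording and, for NK cells, the gate cannot be told apart in that comparison.

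NK receptor genes had the largest differences of the comparison. Ncr1 was 357-fold higher in NK cells by the values above (log2 difference 8.48, SE 0.455, adjusted p = 1.88e-16). Of 14 activating receptor genes 12 were higher in NK cells and none lower, with a list median of 5.21. Klrb1c was at 12.48, 12.14 and 12.12 in NK cells and at 5.93, 5.60 and 5.51 in CD8 T cells, a difference of 6.57 (SE 0.247, adjusted p = 1.55e-20). Klrk1, which encodes the stress-ligand receptor NKG2D, was at 12.03, 11.89 and 11.94 against 6.81, 7.03 and 6.17. All 3 genes were separated by more than 4 log2 units with no overlap.

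Among the other activating receptors, Klrc3, of the NKG2 family, differed by 6.70 (SE 0.204, adjusted p = 9.37e-23), and Klrb1a and Klrb1f, of the NKR-P1 family, by 6.61 and 5.93. Cd244a, which encodes the SLAM-family receptor 2B4, was at 11.61, 10.71 and 11.35 against 6.04, 6.23 and 5.98. Fcgr3, the low-affinity IgG receptor used in antibody-dependent killing, was at 9.56, 10.13 and 9.99 against 6.64, 6.78 and 6.72, and Slamf7 differed by 2.40. Smaller differences, 1.60 and 1.13, were seen for Cd160 and Cd7. The 2 members that were not called were Crtam, at -0.25 (adjusted p = 0.68), and Cd226, which encodes DNAM-1, at -0.74 (adjusted p = 0.047), where every CD8 T cell array was above every NK array.

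Members of the lists of Ly49 and inhibitory receptors were also higher in NK cells where they were called. Of 6 measured Ly49 genes, which encode receptors for MHC class I, 4 were called higher, with a list median of 3.62. Klra8, which encodes the activating member Ly49H, was at 11.83, 12 and 11.60 in NK cells and 4.57, 5.21 and 4.78 in CD8 T cells. Klra3 and Klra5 differed by 5.68 and 4.13. Klra6 differed by 3.12, with 9.98, 10.35 and 10.06 in NK cells against 5.96, 8.75 and 6.33, array 2 being the highest CD8 T cell array. Klra17 and Klra2 were dim in all 6 arrays, between 4.36 and 4.88 in NK cells. Of 17 genes listed as other inhibitory receptors, which include Klri2 and Pilrb1, known in activating forms, 10 were higher in NK cells and none lower, with a median of 1.85. Klrc1, which encodes NKG2A, was at 12.19, 12.29 and 11.95 against 6.40, 6.37 and 5.69. Klri2, Klrb1b, Klre1, Klri1 and Klrg1 differed by 7.64, 6.44, 5.47, 4.94 and 4.78. Klrd1, which encodes CD94, the partner chain of NKG2 receptors, was at 12.20, 12.15 and 11.92 in NK cells and at 10.56, 10.69 and 10.39 in CD8 T cells, a difference of 1.54. Tigit differed by 2.66. Cd96, a receptor of the same nectin-binding group, was at 10.58, 10.62 and 10.87 in NK cells and 11.46, 11.55 and 11.39 in CD8 T cells, short of a 2-fold difference.

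By prefix, a grouping made after the values were seen, 18 of 23 measured Klr genes were higher in NK cells and none in CD8 T cells. A stretch of chromosome 6 was then taken between the outermost Klr genes called higher in NK cells, Klrg1 and Klra3 in RefSeq order. Of its 304 genes 145 were measured, among them 21 Klr genes. It held all 18 called Klr genes, whose place within it follows from how its ends were chosen. Of the 124 other genes, 4 were higher in NK cells (Clec4e, Ptms, Cd9 and Gabarapl1) and 1, Cd69, in CD8 T cells. Over all genes these shares were 2.76% and 2.1%. Cd69 was at 8.85, 8.63 and 8.89 against 10.45, 10.51 and 10.14, and was not called in replicate 3 alone (-1.25, adjusted p = 0.0846). Members of the Klra, Klrb1 and Klrc families are close copies of each other, so how the signal divides among them is uncertain on an array.

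**Figure D2:**
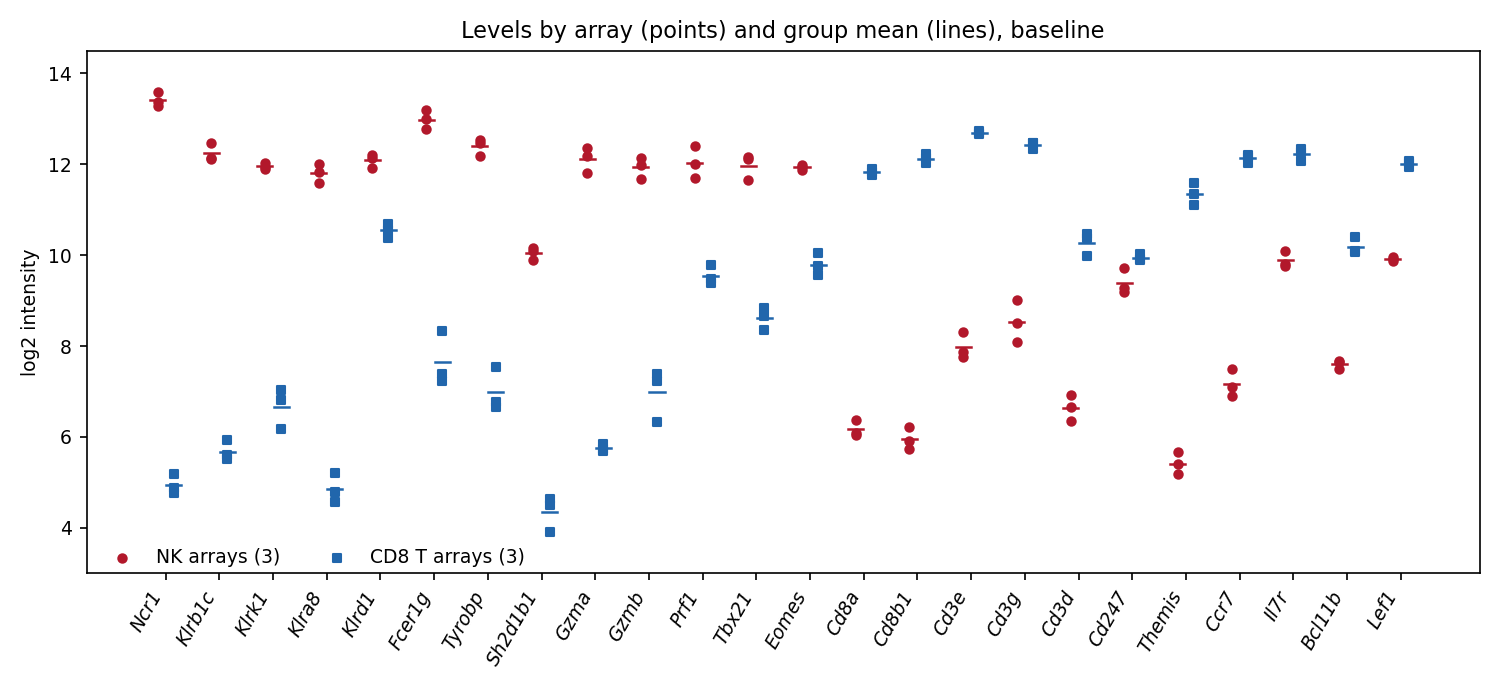
Log2 intensity (vertical axis) of 24 genes in each of the 3 NK arrays (red circles) and 3 CD8 T cell arrays (blue squares), with lines at group means. The genes were picked with their values in view, many under the naming rule, which requires that the groups do not overlap. Their lack of overlap is therefore not a result. The 13 genes on the left lie higher in the NK arrays and the 11 on the right in the CD8 T cell arrays. Among the latter, Cd247 has the smallest separation and was not called.

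The adaptors through which these receptors signal were divided in the same way. Of 11 measured adaptor and kinase genes 8 were higher in NK cells and none lower, with a median of 3.57. Tyrobp, which encodes DAP12, was at 12.19, 12.53 and 12.47 against 6.77, 7.53 and 6.65, and Fcer1g, the Fc receptor gamma chain, at 13.19, 12.99 and 12.77 against 7.39, 8.33 and 7.24. Both were highest, among the CD8 T cell arrays, in array 2, where dendritic cell markers were also highest. The part of those markers in the result was not tested. Without that array Tyrobp and Fcer1g kept their call. Sh2d1b1, which encodes the SLAM-family adaptor EAT-2, was at 9.89, 10.10 and 10.16 against 4.63, 4.50 and 3.92. The kinase gene Syk differed by 3.96, and Lat2, Pik3ap1 and Plcg2 by 3.78, 3.57 and 3.30. Sh2d1b2 differed by 1.23 and lost its call without CD8 T cell array 1 (0.92, adjusted p = 0.0583) or NK array 3 (0.79, adjusted p = 0.0759), and in replicates 1 and 2 alone (0.86, adjusted p = 0.0975). Hcst, which encodes DAP10, did not pass the threshold, with a difference of 0.31 (adjusted p = 0.481).

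The T cell receptor complex was higher in CD8 T cells. Because NK arrays 1 and 2 were gated as TCRb-, the levels of receptor chains and segments there in part check the sort. Of 5 measured members 4 were called, with a median of -3.63. Cd3e was at 7.86, 7.76 and 8.30 in NK cells and at 12.74, 12.69 and 12.67 in CD8 T cells, a difference of -4.72 (SE 0.15, adjusted p = 2.21e-22). Cd3g was at 8.10, 8.50 and 9.01 against 12.33, 12.46 and 12.48, and Cd3d at 6.35, 6.93 and 6.65 against 10.37, 10.46 and 9.99. NK array 3, whose gate does not name TCRb-, was the highest NK array for Cd3e and Cd3g and not for Cd3d. Trat1, a receptor-associated transmembrane adaptor, differed by -2.84. Cd247, the zeta chain that T cell receptors and NK receptors both use, was at 9.19, 9.27 and 9.72 in NK cells and 9.91, 10.02 and 9.90 in CD8 T cells, a difference of -0.55 (adjusted p = 0.023) that was short of 2-fold. Of 6 measured alpha and beta variable segments, a grouping made after the values were seen, 5 were higher in CD8 T cells. Trav14-1, Trav12-2, Trbv1, Trav7d-4 and Trav19 differed by -3.71, -3.55, -2.90, -2.70 and -1.94, and Trav13-5 was not called, at -0.09. Both measured gamma and delta segments were higher in NK cells. Trgv1 was at 9.07, 8.95 and 9.24 in NK cells against 6.24, 7.54 and 5.45, and Trdv2-2 at 6.95, 6.17 and 6.87 against 5.70, 5.54 and 5.06, the latter short of 2-fold in replicates 1 and 2 alone (0.94, adjusted p = 0.00357). Segments of a locus resemble each other, so their signal may be shared.

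Of 21 genes of proximal T cell signalling 9 were higher in CD8 T cells and none in NK cells, with a median of -0.65. Themis, a regulator of T cell receptor signalling in thymic selection, was at 5.19, 5.66 and 5.40 in NK cells and at 11.58, 11.35 and 11.11 in CD8 T cells, a difference of -5.93 (SE 0.269, adjusted p = 1.73e-18). The scavenger-type receptors Cd5 and Cd6 differed by -3.92 and -3.70. Sit1, a transmembrane adaptor, Lat, the central adaptor of T cell activation, Grap2, Thy1 and Ubash3a differed by -3.25, -2.06, -1.69, -1.47 and -1.2, the last not called in replicate 3 alone (-0.99, adjusted p = 0.0613). The phospholipase C genes divided by isoform. Plcg1 was at 6.58, 6.44 and 6.88 in NK cells against 10.24, 10.18 and 10.39, while Plcg2 was at 10.13, 9.21 and 10.25 in NK cells against 6.46, 6.60 and 6.61. Zap70, the kinase that binds phosphorylated CD3 and zeta chains, was at 9.49, 9.77 and 9.70 against 9.80, 9.70 and 9.63 and overlapped between the groups (difference -0.06, adjusted p = 0.933). Lcp2, which encodes SLP-76, and Cd2 were not called either, at -0.03 and 0.13.

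CD8 and the genes of naive T cells included the largest difference on the CD8 T cell side, that of Dapl1. Of 17 measured genes 14 were higher in CD8 T cells and 1, Atp1b1, in NK cells, with a median of -2.68. Dapl1 was at 5.74, 6.12 and 6.08 in NK cells and 13.19, 13.06 and 13.11 in CD8 T cells, a 141-fold difference (log2 difference -7.14, SE 0.279, adjusted p = 3.47e-20). Cd8b1, which encodes the CD8 beta chain, was at 5.74, 6.22 and 5.92 against 12.22, 12.02 and 12.14 and differed by -6.17 (SE 0.176, adjusted p = 2.09e-23), and Cd8a differed by -5.66. Ccr7, the receptor for lymph node entry, was at 6.90, 7.49 and 7.10 against 12.20, 12.16 and 12.04. Il7r, the receptor chain for the survival cytokine IL-7, was at 10.09, 9.77 and 9.81 against 12.08, 12.33 and 12.28. Every array of each group was on its own side for all of these. Ccr9, a gut-homing chemokine receptor, Actn1, Igfbp4, Tdrp and Nsg2 differed by -5.35, -4.15, -3.71, -3.48 and -2.68.

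Other genes among the 25 largest differences on the CD8 T cell side were in none of the lists of function. Slfn1, a schlafen gene linked to T cell quiescence, was at 5.95, 5.93 and 6.42 in NK cells and 10.71, 10.88 and 11.41 in CD8 T cells. Dpp4, which encodes the cell-surface peptidase CD26, differed by -4.24, Tlr1, a receptor for bacterial lipopeptides, by -3.86, and Cpm, a membrane carboxypeptidase, by -3.76. Inpp4b, a phosphoinositide phosphatase, differed by -3.75. On the NK side, Aoah, which encodes an enzyme that deacylates bacterial lipopolysaccharide, was at 10.64, 10.42 and 10.62 against 5.0, 5.49 and 5.42. The adaptor gene Scimp differed by 4.97.

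Cytotoxic genes were higher in NK cells where they were called. Of 24 granule and death effector genes 10 were higher in NK cells and none in CD8 T cells, with a median of 0.87. Gzma, which encodes granzyme A, was at 12.18, 11.80 and 12.36 in NK cells and 5.69, 5.73 and 5.84 in CD8 T cells, an 82.2-fold difference (log2 difference 6.36, SE 0.439, adjusted p = 1.45e-13). Gzmb, granzyme B, was at 11.68, 11.98 and 12.14 against 7.24, 7.38 and 6.34. Prf1, the pore-forming protein perforin, was at 12, 11.70 and 12.41 against 9.39, 9.78 and 9.48, a difference of 2.48 (adjusted p = 1.81e-12). Fasl, the ligand of the death receptor Fas, was at 10.29, 10.51 and 10.30 against 6.20, 6.17 and 5.99. The groups were apart for all 4 genes. The serpins Serpinb9b, Serpinb9 and Serpinb6b, of a family that includes the granzyme B inhibitor, differed by 4.28, 3.30 and 3.01. The machinery that moves granules was not called. Rab27a, Unc13d, Stxbp2 and Lamp1 differed by 0.34, 0.23, 0.16 and -0.01, with adjusted p between 0.629 and 0.994, and only Stx11 of the fusion genes was called, at 1.79. Nkg7 and Ctsw were at 0.83 and 0.92, and Gzmk, Gzmm, Gzmc and Gzmd were not called.

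Of 19 cytokine and chemokine genes 6 were higher in NK cells and 2 in CD8 T cells, with a median of 0.38. Ccl3, an inflammatory chemokine, was at 12.77, 12.38 and 12.66 in NK cells and 8.16, 7.70 and 6.85 in CD8 T cells. Ifng, which encodes interferon gamma, was at 10.95, 10.68 and 10.47 against 6.91, 6.63 and 6.38, a difference of 4.06. Xcl1, which attracts cross-presenting dendritic cells, Ccl4, Ccl5 and Tnfsf14 differed by 2.70, 2.34, 1.97 and 1.15. Ltb, which encodes lymphotoxin beta, and Tnfsf8, the CD30 ligand, were higher in CD8 T cells, by -2.10 and -2.45 as NK minus CD8 T. Tnf was at -0.59 (adjusted p = 0.117) and Il2 at -0.12 (adjusted p = 0.915).

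**Figure D3:**
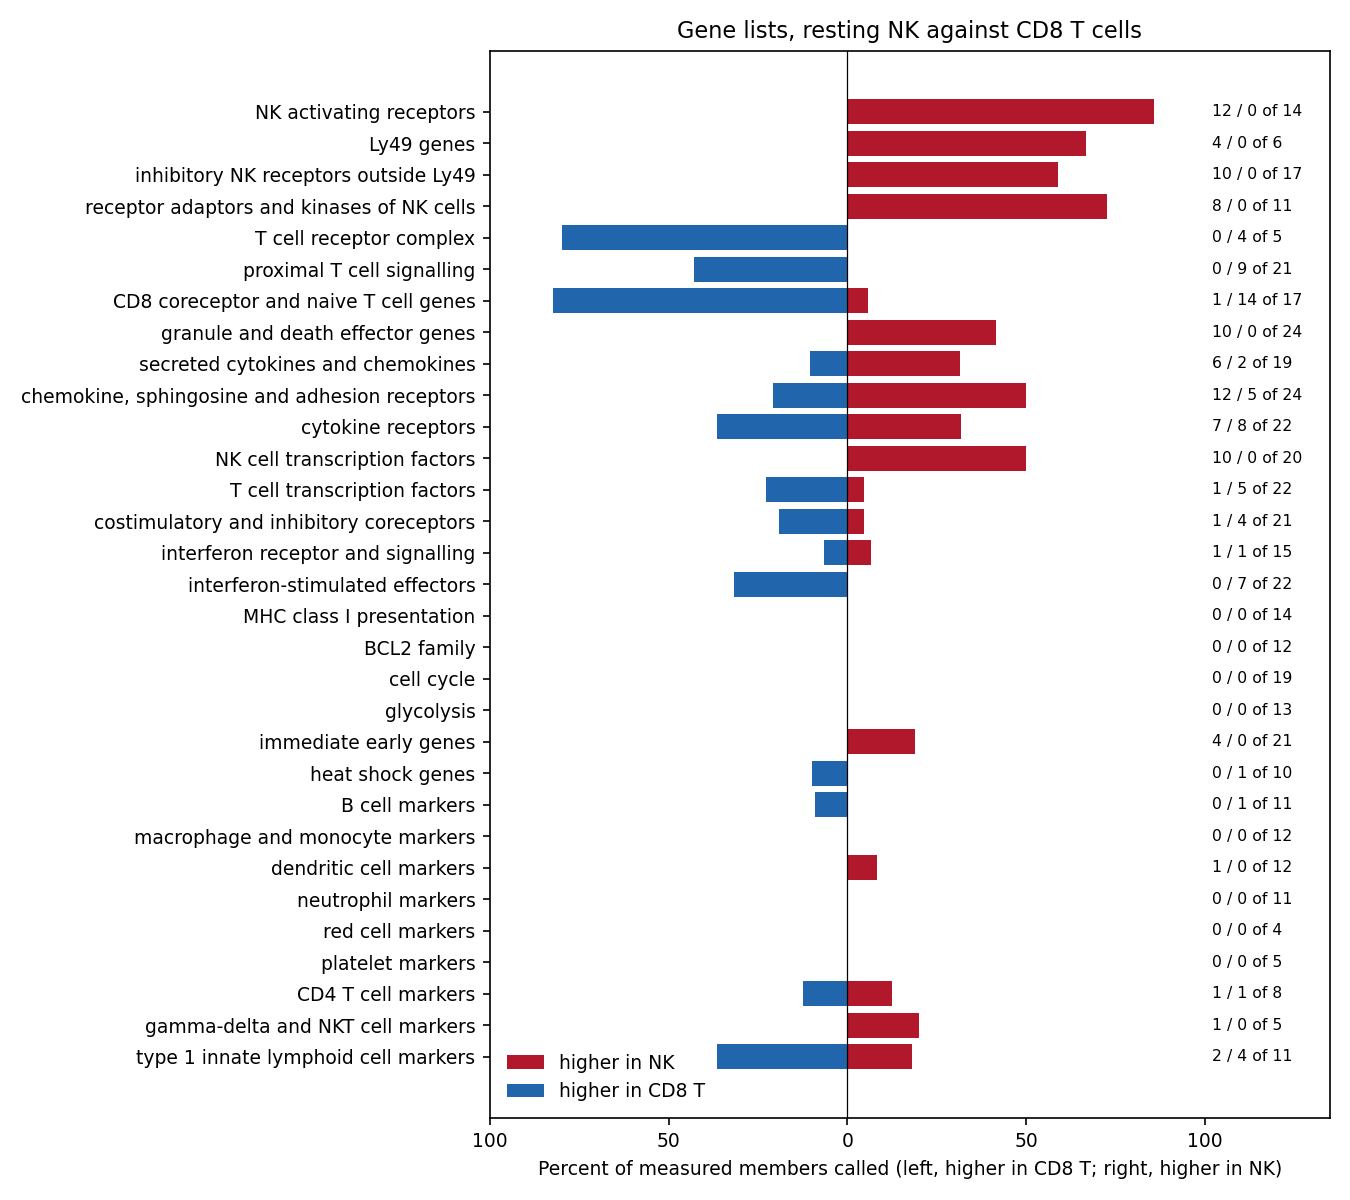
Percent of the measured members of 31 gene lists that were called higher in CD8 T cells (blue, to the left) or in NK cells (red, to the right), with counts of both beside each bar. Lists of NK receptors, their adaptors and granule effectors extend to the NK side. T cell receptor and naive T cell lists extend wholly or mainly to the CD8 T cell side. Cytokine receptors and coreceptors extend to both sides, and interferon-stimulated effectors to the CD8 T cell side. Cell cycle, glycolysis, MHC class I and BCL2 lists have no called member, which in lists of their size is near the shares over all genes. Those were 2.76% higher in NK cells and 2.1% in CD8 T cells.

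Receptors for migration and adhesion were divided between the cell types. Of 24 genes 12 were higher in NK cells and 5 in CD8 T cells, with a median of 0.97. Itga2, which encodes CD49b, an integrin used to define mouse NK cells, was at 12.15, 11.36 and 12.35 in NK cells and 6.68, 6.79 and 6.83 in CD8 T cells. S1pr5, a sphingosine phosphate receptor used by NK cells to leave tissue, was at 11.09, 9.69 and 11.28 against 7.0, 7.04 and 6.94, and its relative S1pr1 was at 9.96, 9.90 and 9.63 against 11.35, 11.37 and 11.26. The sphingosine receptors thus differed in opposite directions, by 3.69 and -1.5. Itgax, Itgam, Itgb1, Itgal and Itgb2, which encode integrin chains, differed by 5.05, 4.79, 2.37, 1.25 and 1.17. Itga4 differed by 1.07 but lost its call without NK array 1 (0.89, adjusted p = 0.0719), in replicates 1 and 2 alone (1.01, adjusted p = 0.0771) and in replicate 3 alone (1.18, adjusted p = 0.31). Ccr2 and Cx3cr1, receptors of inflammatory migration, differed by 4.87 and 1.54. Besides Ccr7, Ccr9 and S1pr1, the CD8 T cell side held Cxcr6 at -2.57 and Itgae, which encodes CD103, at -3.62.

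Cytokine receptors were also divided, with 7 of 22 higher in NK cells, 8 higher in CD8 T cells and a median of -0.01. On the NK side were 1 chain of the interleukin 12 receptor and both chains of that for interleukin 18. Il12rb2 was at 11.96, 11.27 and 11.98 against 6.45, 6.79 and 6.34, and Il18rap and Il18r1 differed by 3.88 and 2.44. Il12rb1, the other interleukin 12 receptor chain, was short of 2-fold, at 0.84 (adjusted p = 0.000182). Il2rb, the beta chain shared by the receptors for interleukins 2 and 15, was at 12.98, 12.57 and 12.94 against 10.65, 11.27 and 10.84. On the CD8 T cell side were Il7r and the interleukin 6 receptor, with Il6ra at 7.24, 7.46 and 7.25 against 10.72, 10.68 and 10.69 and its signalling chain Il6st at 7.17, 6.68 and 7.61 against 11.15, 10.99 and 11.31. Il21r and Il4ra differed by -2.92 and -1.35. The chains of the interferon gamma receptor differed in opposite directions. Ifngr1, the ligand-binding chain, was at 12, 11.92 and 12.35 in NK cells against 10.47, 10.95 and 10.81, and Ifngr2, its partner, at 6.78, 6.60 and 6.47 against 10.06, 9.76 and 9.85.

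Of 20 transcription factors of NK cells 10 were higher in NK cells and none in CD8 T cells, with a median of 1.14. Tbx21, which encodes T-bet, a driver of NK maturation and effector programmes, was at 12.11, 11.65 and 12.16 in NK cells and 8.36, 8.84 and 8.67 in CD8 T cells, a difference of 3.35. Eomes, its relative, was at 11.94, 11.99 and 11.88 against 9.56, 10.05 and 9.77. Zeb2, which acts with T-bet in terminal maturation, differed by 4.08, Prdm1, which encodes Blimp-1, by 3.33, Irf8 by 3.29, Id2, an inhibitor of E proteins, by 2.23 and Nfil3, a factor needed early in NK development, by 2.15. Klf12 had the largest difference of the list, 4.45. Gata3 and Runx3, used by both lineages, were at 0.98 and 0.49 and were not called, and Ets1 was at -0.28.

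Of 22 transcription factors of T cells 5 were higher in CD8 T cells and 1 in NK cells, with a median of -0.18. Bcl11b, which maintains T cell identity, was at 7.67, 7.64 and 7.49 in NK cells and 10.40, 10.10 and 10.07 in CD8 T cells. Lef1, a partner of TCF1 in naive T cells, was at 9.97, 9.87 and 9.91 against 12.07, 11.95 and 12.03. The other 3, Id3, Foxo1 and Ets2, differed by -1.48, -1.40 and -1.33 and were not called in replicate 3 alone (adjusted p between 0.0929 and 0.528). Zbtb7b, the factor known for CD4 lineage choice, was higher in NK cells, at 8.39, 8.28 and 8.44 against 6.67, 6.08 and 6.33. Satb1, Bach2, Foxp1, Tox and Klf2 were not called, with differences between -0.83 and -0.11.

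Of 21 costimulatory and inhibitory coreceptors 4 were higher in CD8 T cells, with a list median of -0.19. Btla, an inhibitory receptor, was at 5.98, 5.73 and 5.61 in NK cells and 8.96, 8.94 and 8.87 in CD8 T cells. Slamf1 and Slamf6 differed by -2.20 and -2.15, and Tnfrsf26 by -1.2, the last not called without NK array 2 (-0.98, adjusted p = 0.00148) or in replicate 3 alone (-1.08, adjusted p = 0.0859). The 1 gene called higher in NK cells, Tnfrsf1b, fell short of 2-fold without NK array 3 (0.92, adjusted p = 0.000332) and in replicates 1 and 2 alone (0.91). Pdcd1, Ctla4, Lag3 and Icos were not called, at -0.19, -0.60, 0.10 and -0.75.

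The called genes of the list of interferon-stimulated effectors were lower in resting NK cells. Of 22 antiviral effector genes 7 were higher in CD8 T cells and none in NK cells, with a median of -0.33. Ifi27l2a was at 6.25, 6.73 and 6.34 in NK cells and 9.55, 9.61 and 9.32 in CD8 T cells, a difference of -3.06 (SE 0.261, adjusted p = 3.12e-11). Ifit3, an RNA-binding antiviral gene, was at 6.77, 6.44 and 7.31 against 8.59, 8.94 and 9.16, and Ifit1 at 6.94, 7.31 and 7.10 against 8.89, 9.11 and 9.35. None of these values overlapped. The oligoadenylate synthetase genes Oas2, Oasl2 and Oas3 differed by -1.73, -1.34 and -1.18. Rsad2, which encodes viperin, differed by -1.05 and was not called in replicate 3 alone (-1.10, adjusted p = 0.248), without CD8 T cell array 2 (-0.99) or after quantile normalisation (-0.96). Mx1, Oas1a, Ifih1 and Ifit2 did not pass the threshold, at 0.15, 0.12, -0.23 and -0.28. Outside the list, Ifitm10, which shares the Ifitm name, was higher in NK cells, at 1.24.

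Of 15 measured receptor and signalling genes of the interferon pathway 2 were called, 1 in each direction. Of these, Tyk2, a kinase of the type I interferon receptor, was higher in NK cells, at 10.56, 9.66 and 10.62 against 9.04, 9.05 and 8.89. Usp18, a protease that restrains the receptor, was higher in CD8 T cells at 9.07, 9.08 and 9.46 against 7.56, 7.80 and 8.40, though not called in replicate 3 alone (-1.06, adjusted p = 0.175). Ifnar1 and Ifnar2, the receptor chains, differed by 0.07 and 0.23, and Stat2, Irf7 and Irf9 by 0.07, -0.09 and -0.63. The list median was 0.07.

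Among the housekeeping and state lists, no gene was called for MHC class I presentation (0 of 14, median -0.39), the BCL2 family (0 of 12, median 0.20), the cell cycle (0 of 19, median 0.12) or glycolysis (0 of 13, median -0.02). Over all genes 2.76% were called higher in NK cells and 2.1% in CD8 T cells. In lists of this size, no called gene is near those shares. B2m, the light chain of MHC class I, was at 13.35, 13.45 and 13.34 against 13.24, 13.26 and 13.19. In the cell cycle list NK array 3 stood above NK arrays 1 and 2. Ccna2, which encodes cyclin A2, was at 6.80, 5.91 and 8.76 in NK cells and 6.61, 7.07 and 7.43 in CD8 T cells, and Top2a at 7.09, 6.21 and 8.41 against 6.67, 7.14 and 7.45. Of 21 immediate early genes, which respond within minutes to stimulation or handling, Jun, Nr4a2, Fosb and Junb were higher in NK cells, by 1.42, 1.37, 1.06 and 1.02, with a list median of 0.28. Nr4a2 aside, these lost their call without NK array 3, at 1.23 for Jun (adjusted p = 0.0571), 0.84 for Fosb and 0.91 for Junb, and without CD8 T cell array 3, at 1.01 (adjusted p = 0.124), 0.96 and 0.93. Junb also lost it without NK array 1 (0.94) and in replicate 3 alone (1.43, adjusted p = 0.082). In replicates 1 and 2 alone Jun, Fosb and Junb were at 0.81, 0.74 and 0.82 and not called. Of 10 heat shock genes Hspe1 was called, at -1.42, and it was not called in replicate 3 alone (-1.25, adjusted p = 0.143). Its list had a median of -0.35.

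Markers of type 1 innate lymphoid cells, relatives of NK cells that share NK1.1, were included because the NK gate could hold them. Of 11 measured, Tmem176b and Itga1, which encodes CD49a, were higher in NK cells, by 1.27 and 1.25. Cd69, Il7r, Cxcr6 and Inpp4b were higher in CD8 T cells. Itga1 was at 7.04, 6.51 and 6.72 in NK cells and 5.57, 5.48 and 5.46 in CD8 T cells. The summed level of the list was 13.05 to 13.15 in NK cells and 13.91 to 14.08 in CD8 T cells. For the list of gamma-delta T and NKT markers it was 9.69 to 9.87 and 9.06 to 9.23, and for the CD4 T cell list 9.80 to 9.91 and 9.73 to 9.76. Over the 22 lists of function, 363 genes were measured, of which 87 were higher in NK cells and 56 in CD8 T cells. The shares to set beside these and each list count above are 2.76% and 2.1% over all genes. The lists were chosen with earlier results of these data known, so a higher share in them is not a finding by itself.

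**Figure D4:**
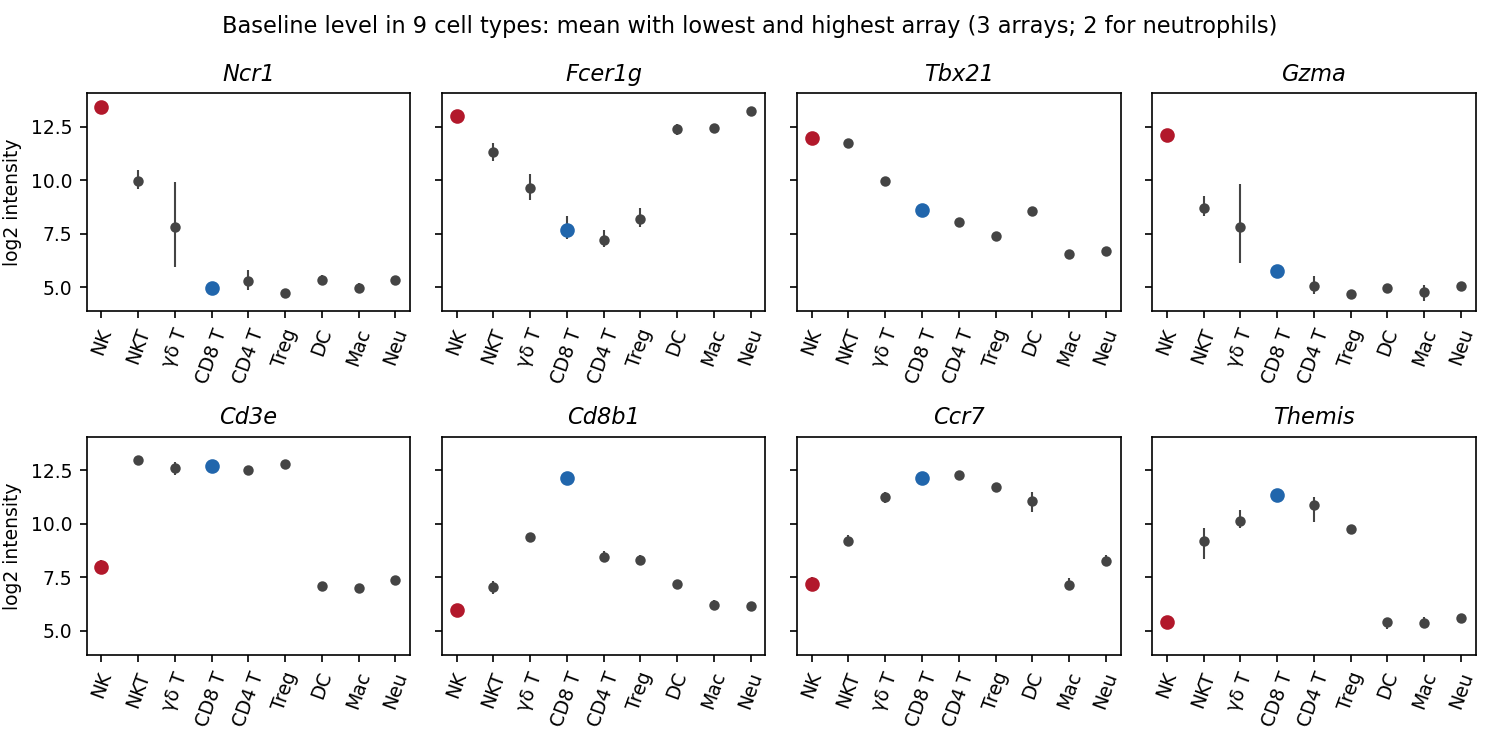
Baseline log2 intensity (vertical axes) of 8 genes in 9 cell types of the series (horizontal axes; Mac, macrophages; Neu, neutrophils); points are means and bars run from the lowest to the highest array, of 3 arrays a type and 2 for neutrophils. NK cells (red) have the highest mean for Ncr1, Tbx21 and Gzma, CD8 T cells (blue) for Cd8b1 and Themis, and NKT cells have means between NK and CD8 T cells for 7 of the 8 genes, the exception being Cd3e.

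Levels in the other resting cell types were set beside these differences as a description. Ncr1 averaged 9.98 in NKT cells and 7.83 in gamma-delta T cells, and its mean was between 4.73 and 5.35 in the 6 types other than these and NK cells. Gzma averaged 8.72 in NKT cells and 7.81 in gamma-delta T cells, where its 3 arrays ran from 6.11 to 9.83. Tbx21 ran from 11.70 to 11.81 in NKT cells and from 11.65 to 12.16 in NK cells, and these ranges overlapped. Fcer1g was not particular to NK cells, with means of 12.42, 12.47 and 13.26 in dendritic cells, macrophages and neutrophils. On the other side, Cd3e ran from 12.30 to 13.08 over the arrays of NKT, gamma-delta T, CD4 T, regulatory T and CD8 T cells. Dapl1 averaged 12.97 in CD4 T cells and 12.12 in gamma-delta T cells, Ccr7 12.27 and 11.24, and Themis 10.86 and 10.12. Cd8b1 averaged 8.46 in CD4 T cells, with arrays from 8.31 to 8.73, against 12.02 to 12.22 in CD8 T cells.

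The same contrast was then made in arrays whose levels are not part of the baseline means, although all arrays share the variance estimate of the fit. They came from mice of the same strain, sex and age taken 2 h after 10000 U of interferon alpha, with 2 arrays for each type. There 507 genes (2.57%) were called higher in NK cells and 364 (1.84%) higher in CD8 T cells. Of the genes called higher in NK cells at baseline, 400 were called again, which is 73.3% of the baseline list and 78.9% of the interferon list. Of those higher in CD8 T cells 245 were called again, 59% and 67.3% of the lists. The sign was the same for 545 of 546 and 414 of 415 baseline genes, and no gene was called in opposite directions. All 50 genes named by size, the 25 largest of each direction under the naming rule, were called and separated after interferon. With 2 arrays for each type separation alone is weak evidence, and the share of all genes that separated is not given here. Ncr1 differed by 8.43 and Dapl1 by -6.82 there.

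**Figure D5:**
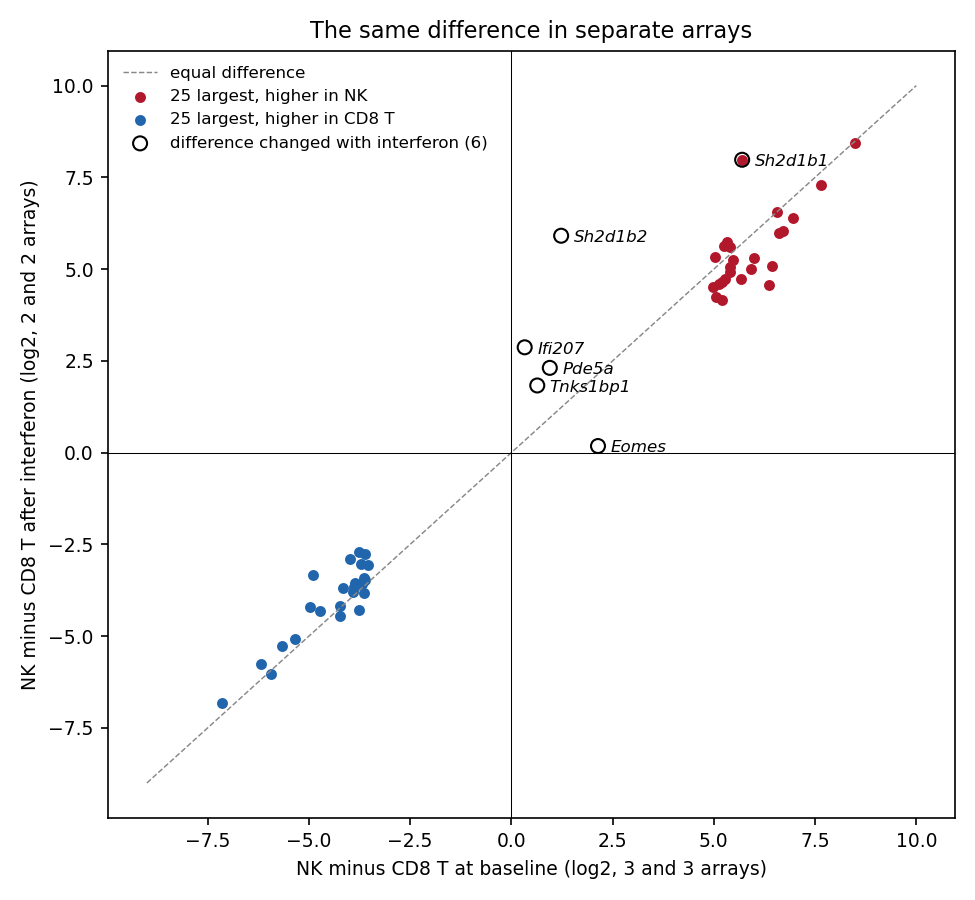
Difference between NK and CD8 T cells (log2, NK minus CD8 T) at baseline (horizontal axis, 3 and 3 arrays) and after interferon (vertical axis, 2 and 2 arrays) for the 25 largest differences of each direction and, ringed, the 6 genes whose difference itself changed. The 50 genes keep their sign; Sh2d1b2 moves from 1.23 to 5.91 and Eomes from 2.14 to 0.18, away from the dashed line of equal difference.

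For 6 genes (0.0304% of those tested) the NK minus CD8 T cell difference itself changed with interferon. Sh2d1b2, a SLAM-family adaptor gene, was at 5.06, 4.79 and 6.23 in resting NK cells and 10.37 and 10.46 after interferon, and its levels in CD8 T cells were 3.51, 4.62 and 4.26 and then 4.79 and 4.22. The change of the difference was 4.68 (SE 0.461, adjusted p = 2.21e-07). Sh2d1b1, a close copy, changed by 2.28 (adjusted p = 0.00889), Ifi207 by 2.54 (adjusted p = 0.0491), Pde5a, a cyclic GMP phosphodiesterase, by 1.36 (adjusted p = 0.0236) and Tnks1bp1 by 1.2 (adjusted p = 0.0491). Eomes changed in the other direction, by -1.96 (adjusted p = 0.0276). It was at 11.43 and 11.58 in NK cells after interferon and at 11.14 and 11.52 in CD8 T cells, where it had been 9.56, 10.05 and 9.77.

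With each of the 10 arrays left out in turn, Sh2d1b2 was called every time, between 4.39 and 5.11. Sh2d1b1 was called in 5 of the 10 fits, Pde5a in 4, Eomes in 3, Tnks1bp1 in 1 and Ifi207 in none. The number of genes called was 1 without baseline CD8 T cell array 1, either NK interferon array or CD8 T cell interferon array 2, 2 without baseline CD8 T cell array 3 or CD8 T cell interferon array 1, 3 without baseline NK array 1, 4 without baseline CD8 T cell array 2, 6 without baseline NK array 3 and 15 without baseline NK array 2. None of the 7 antiviral genes that were lower in resting NK cells was called in this test over all arrays. Ifit3 went from -2.06 to -0.33 (change 1.73, adjusted p = 0.0965), Ifit1 from -2.0 to -0.31 (change 1.69, adjusted p = 0.715), and Oas2 and Ifi27l2a were at -2.51 and -3.46 after interferon. The change of Ifit3 was called without baseline NK array 3 (1.96, adjusted p = 0.0299) and with array weights (1.76, adjusted p = 0.0114), and that of Ifit1 with array weights (1.82, adjusted p = 0.0101). The preparation named for the NK interferon arrays is not shared by any resting array of these 2 types, and the NK gate there was NK1.1+ alone, so that wording, gate and interferon cannot be told apart in this comparison.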

How the data were processed

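RNA of 43 sorted cell samples was measured on Affymetrix whole-transcript arrays (Mouse Gene 1.0 ST) after TriZol extraction, per the labels' protocols. The deposited value is an intensity on a linear scale for each probe set and array, made with Affymetrix Power Tools by RMA per the submitters' processing notes, which combines the probes of a set and quantile-normalises the arrays. For software versions and the genome build: not given in the sources used here. No detection calls were used.

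The deposited intensities, from 4.69 to 22042, were log2-transformed without further scaling. Of 24922 probe sets, 21425 carried 1 gene symbol in the platform annotation, 1399 several and 2098 none, and only the first were used. For 921 genes with several probe sets the brightest was taken, which left 19752 genes. Of the 21425 symbols, 21347 matched RefSeq.

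All 18 groups of 43 arrays were fitted together in limma 3.58.1 (lmFit and eBayes, R 4.3.3, 25 residual degrees of freedom), and contrasts were taken between group means. P-values are two-sided and adjusted by Benjamini-Hochberg over all genes. The fit was tested on simulated data for the baseline comparison of 19752 genes, where 100% of genes changed by 1.5, 2 or 3 on the log2 scale were called, with 1 false call. The simulated noise was independent, with the same spread for a gene in all groups, as the fit assumes. It therefore checks the code and does not show how calls behave where spread or preparation differs between arrays. Genes named are the 25 largest differences in each direction that separated every array and held in replicates 1 and 2 and in replicate 3, without predicted models, together with members of 31 gene lists and up to 6 changes with interferon in each direction. The members and lists were chosen with earlier results of these data known, and genes named from lists were picked with their values in view. Lists are described by counts and medians, with no test. The text also gives levels in other resting cell types.

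Alternatives were the 6 arrays or the baseline arrays fitted alone, replicate number as a block, each replicate set alone, quantile normalisation, array weights, robust moderation with a variance trend, probe sets averaged, dim genes left out and each array left out, and, chosen after seeing the data, CD8 T cell arrays 1 and 2 left out. Deviations of same-numbered NK and CD8 T cell arrays from their group means correlated at 0.17, -0.029 and -0.034 for replicates 1, 2 and 3. With 3 arrays a group, these values cannot decide whether replicate numbers pair the samples.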

Additional observations from a re-analysis of the deposited data

Results flagged for a closer look

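For 6 genes the difference between NK and CD8 T cells was not the same at baseline and after interferon, by a test of that change in limma. The change, as the interferon value minus the baseline value of NK minus CD8 T, was 4.68 for Sh2d1b2, 2.54 for Ifi207, 2.28 for Sh2d1b1, 1.36 for Pde5a, 1.2 for Tnks1bp1 and -1.96 for Eomes. Ifi207 was at 6.76, 6.46 and 6.45 in resting NK cells and 9.60 and 10.41 after interferon, against 6.05, 6.62 and 6.01 and then 7.07 and 7.21 in CD8 T cells. Pde5a was at 6.45, 6.05 and 6.52 and then 7.85 and 7.72 in NK cells, against 5.46, 5.27 and 5.43 and then 5.60 and 5.34. Tnks1bp1 was at 8.46, 8.01 and 8.63 and then 9.33 and 9.44 in NK cells, against 7.73, 7.83 and 7.62 and then 7.63 and 7.47. Sh2d1b1 was at 11.68 and 11.61 in NK cells after interferon and at 3.62 and 3.71 in CD8 T cells. Single outlying arrays were not tested in groups of 3.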

How the results depend on the processing

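Counts at baseline moved by less than 1.5 times under the alternatives tried, except that replicate 3 alone gave 234 genes higher in CD8 T cells. With 1 array left out they ran from 502 to 641 for NK cells and from 365 to 466 for CD8 T cells, and in the function lists from 84 to 95 and from 54 to 62. After interferon they ran from 468 to 493 and from 275 to 413. The 160 called genes followed were the 50 named by size, 25 in each direction, and the list members. Of these, 141 kept their call in every setting that tested them, of 18 settings in all, and none reversed. With dim genes left out, 159 were tested and kept their call. The 50 named by size kept theirs too, which the naming rule fixed for the settings with replicates 1 and 2 or replicate 3 alone. The number of genes whose difference changed with interferon was 6, and 14 after quantile normalisation, 116 with array weights and 1 to 15 with an array left out; the cause was not tested. With replicate number as a block it was 11, Ifit3 included (1.73, adjusted p = 0.000944). The block gave 547 and 416 baseline genes over all groups and 550 and 422 over the 6 arrays. Whether the numbers pair the samples is not known. With 3 arrays a group and no detection calls, small differences and dim genes are the least certain.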
